A study of Arabidopsis thaliana with 6 samples.

Results

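The UDP-glycosyltransferase (UGT) genes of Arabidopsis thaliana were compared between seedlings that overexpress KLU and the wild type. Members were all genes whose symbol in the platform annotation starts with UGT and that had a probe set paired with exactly 1 gene, leaving out UGT78D1, UGT78D2 and UGT76C2. This gave 44 genes of 13356 with such a probe set, in 11 family numbers. Each member had 1 probe set, a set of short probes for the same transcript, so no choice between probe sets was needed. RefSeq gives a UGT symbol to 58 genes, of which 4 shared their probe set with another gene and 7 had no listed probe set here.

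The 2 genotypes were 35S::KLU, in which the viral 35S promoter, active in most tissues, drives the KLU gene, and the wild type (WT). The KLU protein is CYP78A5, a cytochrome P450 enzyme that stimulates the growth of plant organs. Both genotypes were of the Col-0 accession and at growth stage 1.03, and shoots were taken after growth on half-strength medium plates at 21 °C under 16 h light and 8 h darkness. Each genotype had 3 arrays, from 3 independent experiments, and each sample pooled 5 seedlings. The number of independent transgenic lines is not stated in the labels.

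Enzymes of this superfamily, named UGT with a family number, a subfamily letter and a gene number, move a sugar from a UDP-sugar to a small acceptor molecule. The acceptors are hormones, phenylpropanoids, flavonoids, sterols, glucosinolate precursors and foreign compounds, and the sugar usually makes the product more soluble and often less active. Many of the genes lie side by side in the genome as tandem copies. In bulk shoot RNA, fewer cells of a type and less RNA per cell cannot be told apart.

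Affymetrix ATH1 arrays measured the RNA, and every level below is the log2 signal of the authors' RMA values, on which a difference of 1 is a doubling. The array medians lay between 6.01 and 6.05 and the lower quartiles between 4.06 and 4.11. Low signals are compressed by RMA, which makes folds of dim genes too small. KLU itself had 0 probe sets paired with it, so the labels were not checked against the transgene. Of the tissue markers drawn up, 3 of 8 leaf genes and 3 of 6 root genes had a listed probe set. The leaf gene LHCB4.1 had a level of 13.63 ± 0.05 in 35S::KLU and 13.66 ± 0.07 in WT (SD, n = 3 each). LHCB4.2 had 13.65 ± 0.07 in 35S::KLU and 13.52 ± 0.05 in WT, and LHCB4.3 had 8.39 ± 0.41 in 35S::KLU and 8.17 ± 0.29 in WT. The differences of these leaf genes were -0.03, 0.13 and 0.22, and none passed. The root hair genes lay nearer the lower quartile, EXPA7 at 4.05 ± 0.15 in 35S::KLU and 4.22 ± 0.05 in WT, and EXPA18 at 4.80 ± 0.23 in 35S::KLU and 4.87 ± 0.18 in WT. The root-enriched PYK10 was bright, at 10.68 ± 0.15 in 35S::KLU and 10.25 ± 0.26 in WT (limma adjusted p = 0.078). Its difference was 0.43, and all 35S::KLU arrays were above all WT arrays, as for 10.2% of all genes. The part of these markers in the values below was not tested.

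UGT72B3, UGT85A5 and UGT73B5 rose in 35S::KLU, by 1.5-fold, 1.53-fold and 1.28-fold, and the other 41 members did not pass the test. The test was limma's, two-sided, over all 22746 probe sets with a Benjamini-Hochberg adjusted p under 0.05. The 3 called members were 6.82% of the 44, and 0 fell. Across all 13356 genes 6.85% were called, 3.51% higher and 3.34% lower, so the share of called members was close to the background. An unadjusted limma p under 0.05 was reached by 5 of the 44 members, a smaller share than the 19.1% (2552 of 13356) of all genes. Among the 5 were UGT88A1, which was higher, and UGT74D1, which was lower in 35S::KLU. The median log2 difference of the 44 was 0.03, against -0.02 over all genes, and the quartiles of the 44 differences were -0.04 and 0.08.

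The sizes of the differences were also near those of all genes. The median absolute log2 difference was 0.08 for the members and 0.09 over all genes. A 95% confidence interval inside a log2 difference of 0.5 in either direction was found for 39 of the 44 members and for 11899 of the 13356 genes. Of the 41 that did not pass, 39 had such an interval, and the exceptions were UGT71B1 and UGT72E1, whose intervals reached 0.52 and 0.63. An interval reached 1 in either direction for 0 of the 44 and for 181 of all genes. The 3 values of 35S::KLU lay all above those of WT for 5 members (11.4%, background 10.2%) and all below for 3 members (6.82%, background 13.3%).

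**Figure D1:**
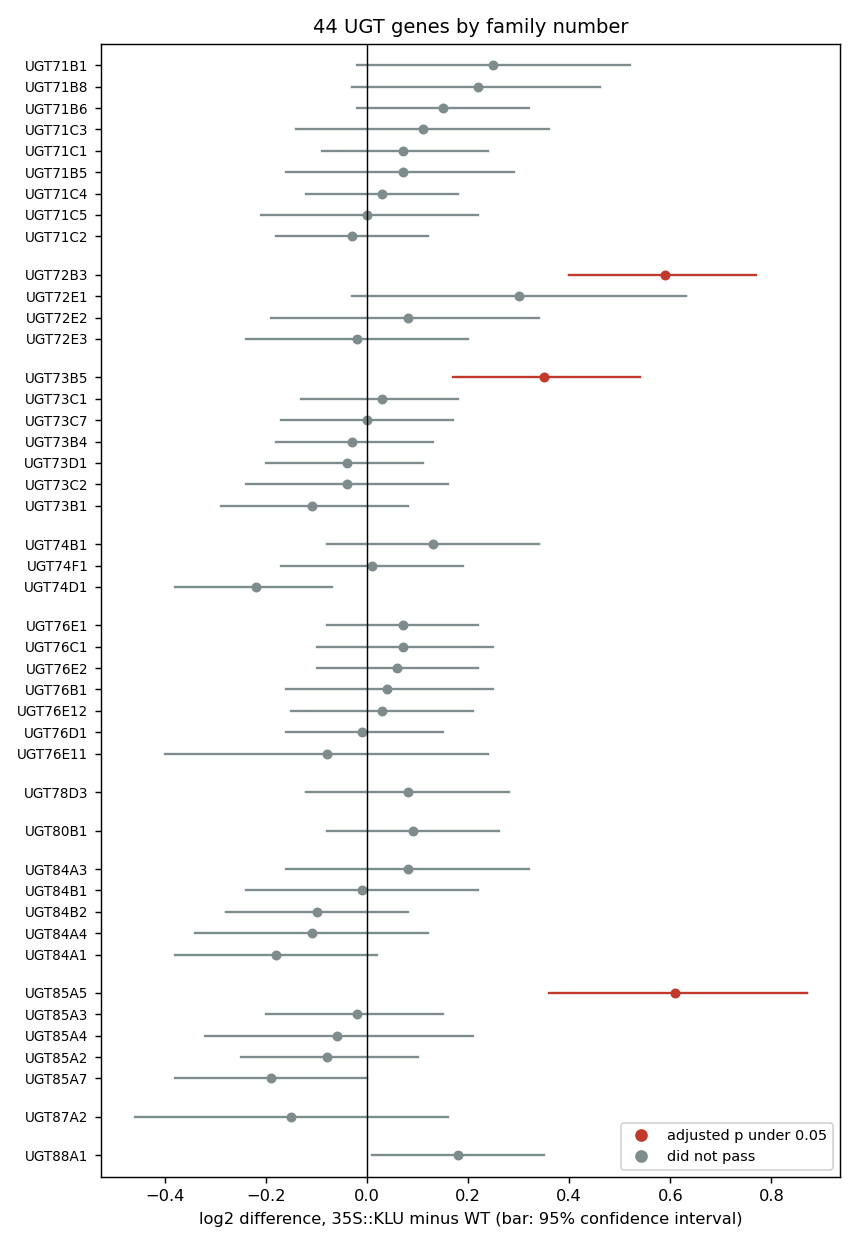
Log2 differences, 35S::KLU minus WT, of the 44 UGT genes on the horizontal axis, grouped down the page by family number, with points for the limma estimates and bars for 95% confidence intervals (n = 3 arrays per genotype). UGT72B3, UGT73B5 and UGT85A5, in red, passed the test at 0.59, 0.35 and 0.61, and the other 41 estimates lay between -0.22 and 0.30.

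UGT72 enzymes glucosylate monolignols and related phenolic alcohols and aldehydes, and UGT72B1, of the same subfamily as UGT72B3, also conjugates chlorinated foreign compounds. UGT72B3 had levels of 7.17, 7.14 and 7.06 in 35S::KLU and 6.64, 6.57 and 6.39 in WT. The lowest 35S::KLU array lay above the highest WT array, and both genotypes were above the array medians. The log2 difference was 0.59 (SE 0.08, 95% interval 0.40 to 0.77, limma adjusted p = 0.0024). It passed with each array left out in turn, with adjusted p between 0.0032 and 0.015.

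The 3 UGT72E genes, whose products act on coniferyl and sinapyl alcohols and aldehydes, did not pass. UGT72E1 had 7.68, 7.73 and 7.76 in 35S::KLU and 7.77, 7.43 and 7.07 in WT. The WT arrays spread far more (SD 0.35) than the 35S::KLU arrays (SD 0.04), and WT replicate 1 was above all of the others. The difference of 0.30 (SE 0.15, adjusted p = 0.28) reached 0.47 without WT replicate 1 (adjusted p = 0.031) and was 0.12 without WT replicate 3 (adjusted p = 0.62). UGT72E2 and UGT72E3 differed by 0.08 and -0.02. The median of the 4 UGT72 members was 0.19, and without WT replicate 1 it was 0.33 and without WT replicate 3 it was 0.08.

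The UGT85A subfamily contains UGT85A1, an O-glucosyltransferase of trans-zeatin, which is not among the members, and UGT85A5, whose expression in tobacco was tied to salt tolerance. UGT85A5 had levels of 5.78, 6.03 and 6.07 in 35S::KLU and 5.56, 5.17 and 5.30 in WT. All 35S::KLU arrays were above all WT arrays, with 35S::KLU replicate 1 nearest to them. The log2 difference was 0.61 (SE 0.11, 95% interval 0.36 to 0.87, limma adjusted p = 0.0099). The call held with each array left out in turn, though narrowly without WT replicate 2, where the difference was 0.53 and the adjusted p 0.0496.

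UGT85A5 lies in a run with UGT85A7, UGT85A2 and UGT85A3, with no other protein-coding gene between neighbours in the RefSeq order of assembly TAIR10.1. None of these neighbours passed. UGT85A7 had 5.24, 5.52 and 5.42 in 35S::KLU and 5.62, 5.53 and 5.59 in WT. Its groups did not overlap, with 35S::KLU below WT, and the difference was -0.19 (SE 0.08, adjusted p = 0.24). UGT85A2 and UGT85A3 differed by -0.08 (adjusted p = 0.64) and -0.02 (adjusted p = 0.92). The fifth UGT85 member, UGT85A4, lies elsewhere and differed by -0.06 (adjusted p = 0.85). Whether UGT85A5 changed differently from its neighbours was not tested. The median of the 5 UGT85 members was -0.06, and without 35S::KLU replicate 2 it was -0.01 and without 35S::KLU replicate 1 it was -0.02.

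UGT73 enzymes act on flavonoids, brassinosteroids, cytokinins and foreign compounds, and UGT73B5 is known for its induction during pathogen attack and oxidative stress. UGT73B5 had levels of 4.45, 4.60 and 4.33 in 35S::KLU and 4.13, 4.14 and 4.05 in WT. The groups did not overlap, and the WT values were close to the lower quartile of the arrays, where changes are compressed. The log2 difference was 0.35 (SE 0.08, 95% interval 0.17 to 0.54, limma adjusted p = 0.030). The call did not survive the removal of WT replicate 2 (adjusted p = 0.094) or WT replicate 3 (0.096), nor that of 35S::KLU replicate 1 (0.069) or 35S::KLU replicate 2 (0.097), and the differences in those fits were 0.28 to 0.37.

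UGT73B4, the neighbour of UGT73B5 with no coding gene between them, had 3.93, 4.04 and 3.99 in 35S::KLU and 4.02, 4.03 and 3.99 in WT. All 6 values were below the lower quartile of their arrays, and the difference was -0.03 (SE 0.07, adjusted p = 0.88). A change in UGT73B4 below what a dim probe set can show was not detectable. Of the other UGT73 members, UGT73B1 had signals above the array medians and differed by -0.11 (SE 0.08, adjusted p = 0.54). UGT73C1, UGT73C2, UGT73C7 and UGT73D1 were below the lower quartile on every array and differed by 0.03, -0.04, 0.00 and -0.04. The median of the 7 UGT73 members was -0.03, and it turned to 0.02 without 35S::KLU replicate 1.

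**Figure D2:**
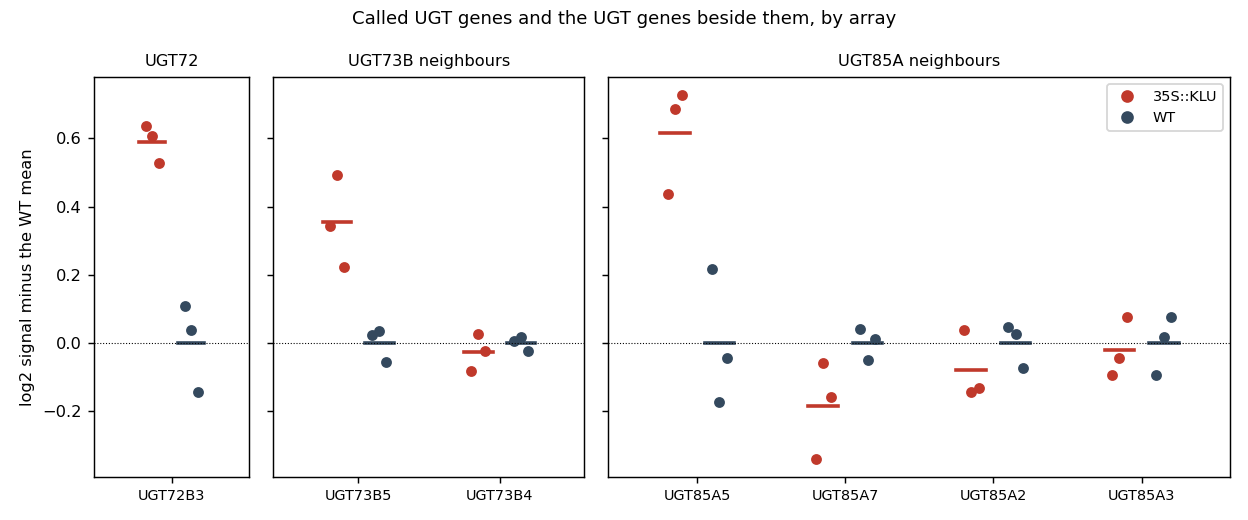
Log2 signal of each array minus the WT mean of the same gene on the vertical axis, for the 3 called UGT genes and the UGT genes beside them in the genome, with 35S::KLU arrays in red left of WT arrays in dark blue and short bars for the means (n = 3 each). The 35S::KLU points of UGT72B3, UGT73B5 and UGT85A5 all lie above their WT points, while those of UGT73B4, UGT85A2 and UGT85A3 overlap WT and those of UGT85A7 lie below it.

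None of the members known for conjugating auxin, abscisic acid, salicylic acid or cytokinin by N-glucosylation passed. UGT74D1, which glucosylates auxin and its oxidised form, came nearest. It had 8.10, 8.18 and 8.12 in 35S::KLU and 8.28, 8.40 and 8.39 in WT. All 35S::KLU arrays were below all WT arrays, the spread within genotypes was small (SD 0.04 in 35S::KLU and 0.06 in WT), and the signal was above the arrays' upper quartiles. The difference was -0.22 (SE 0.07, 95% interval -0.38 to -0.07, limma adjusted p = 0.09). It passed when arrays were weighted by their quality (adjusted p = 0.031), which raised the calls over all probe sets from 1893 to 2978. The weights were 2.767 for WT replicate 2, which had the highest value of this gene, and 0.5309 and 0.8105 for WT replicates 1 and 3. UGT74D1 did not pass with the 3 other scalings (adjusted p = 0.11, 0.14 and 0.14) or with the replicate block (0.15).

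UGT84B1, which also glucosylates auxin, was below the lower quartile on every array and differed by -0.01 (SE 0.10). For abscisic acid, UGT71B6 and UGT71C5 are among the enzymes that make its glucose ester, and UGT71B8 is a close relative of UGT71B6. UGT71B6 differed by 0.15 (SE 0.08, adjusted p = 0.30) at a level below the lower quartile, UGT71B8 by 0.22 (SE 0.11, adjusted p = 0.29) and UGT71C5 by 0.00 (SE 0.10). For salicylic acid, UGT74F1 differed by 0.01 (SE 0.08) and UGT76B1, which also acts on isoleucic acid, by 0.04 (SE 0.09) at a level below the lower quartile. For cytokinin N-glucosylation the statement rests on UGT76C1 alone, since UGT76C2, of the same subfamily, was left out of the members. The cytokinin N-glucosyltransferase gene UGT76C1 had 6.77, 6.70 and 6.87 in 35S::KLU and 6.75, 6.75 and 6.62 in WT. Its groups overlapped, and the difference was 0.07 (95% interval -0.10 to 0.25, adjusted p = 0.66).

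The UGT71 family was the largest, with 9 members, of which 0 passed. The member with the smallest p was UGT71B1, with 7.61, 7.18 and 7.27 in 35S::KLU and 7.23, 6.94 and 7.14 in WT. The groups overlapped only slightly, since 35S::KLU replicate 2 lay between WT arrays, and the difference was 0.25 (SE 0.12, adjusted p = 0.26). UGT71B1, UGT71B6 and UGT71B8 lie close together in the genome, with at most 2 coding genes between neighbours, and their differences ran from 0.15 to 0.25. UGT71C3, UGT71C4 and UGT71C5, which form an unbroken run, differed by 0.11, 0.03 and 0.00, and the adjacent pair UGT71C1 and UGT71C2 by 0.07 and -0.03. UGT71B5 differed by 0.07. The median of the family was 0.07, and with 1 array removed it was lowest at 0.03 (without WT replicate 1) and highest at 0.11 (without 35S::KLU replicate 1).

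Members of hydroxycinnamate and glucosinolate conjugation did not pass either. UGT84A enzymes make glucose esters of hydroxycinnamic acids such as sinapate. UGT84A1 had 4.60, 4.53 and 4.65 in 35S::KLU and 4.70, 4.95 and 4.66 in WT. The 35S::KLU arrays were below the WT arrays by a narrow gap, and the difference was -0.18 (SE 0.09, adjusted p = 0.30). Its neighbours UGT84A3 and UGT84A4 differed by 0.08 and -0.11, and UGT84B2, beside UGT84B1, by -0.10. The median of the 5 UGT84 members was -0.10, and it was -0.04 without 35S::KLU replicate 3, -0.05 without WT replicate 2 and -0.15 without WT replicate 1. UGT74B1, which adds the glucose of the glucosinolate core, was bright, at 9.28 ± 0.15 in 35S::KLU and 9.15 ± 0.10 in WT (SD, n = 3 each), a difference of 0.13 (adjusted p = 0.50). The median of the 3 UGT74 members was 0.01, and it turned to -0.05 without WT replicate 1 and to -0.03 without 35S::KLU replicate 1.

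The 7 UGT76 members spanned the narrowest range among families of 3 or more, with differences between -0.08 and 0.07. On every array 3 of the 7 lay below the lower quartile, where changes are compressed. The median of the 7 was 0.04, and it lay between 0.02 and 0.07 with 1 array removed. It was 0.02 without WT replicate 2 or WT replicate 3, and 0.07 without 35S::KLU replicate 1. UGT76E1 had the smallest p of the family, with 3.57, 3.57 and 3.61 in 35S::KLU and 3.45, 3.56 and 3.53 in WT. Its groups did not overlap, by a very small gap, and the difference was 0.07 (SE 0.07, adjusted p = 0.63) at a level below the lower quartile on every array. Its neighbour UGT76E2 differed by 0.06. UGT76E11 and UGT76E12, another neighbouring pair, differed by -0.08 and 0.03, and UGT76D1, which acts on dihydroxybenzoic acids, by -0.01.

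The remaining families had 1 member each. UGT88A1 had a strong signal, with 11.02, 11.09 and 11.24 in 35S::KLU and 10.97, 10.95 and 10.91 in WT. All 35S::KLU arrays were above all WT arrays, and the difference was 0.18 (SE 0.08, 95% interval 0.01 to 0.35, adjusted p = 0.21). UGT87A2, which is known for an effect on flowering time, had 7.30, 7.01 and 7.56 in 35S::KLU and 7.63, 7.29 and 7.40 in WT. The arrays overlapped widely, and the difference was -0.15 (SE 0.14, adjusted p = 0.62). UGT80B1, a sterol glucosyltransferase gene, had 6.84, 7.01 and 6.89 in 35S::KLU and 6.77, 6.89 and 6.80 in WT, with a difference of 0.09 (SE 0.08, adjusted p = 0.57). UGT78D3, which transfers arabinose to flavonols, had 4.0, 4.06 and 4.11 in 35S::KLU and 4.08, 3.80 and 4.06 in WT, with a difference of 0.08 (SE 0.09, adjusted p = 0.70). It was below the lower quartile on every array, and WT replicate 2 alone was lower than the rest.

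Signals of different probe sets do not rank transcript amounts, since probes differ in affinity, but they set how small a change can be seen. The mean signal over 6 arrays ran from 3.24 for UGT76E12 to 11.03 for UGT88A1, with a median of 4.78, against 5.56 over all genes. On every array 13 members (29.5%) lay below the lower quartile, against 25.6% of all genes, and 5 of these were in family UGT73. Of the 28 members dimmer than the median probe set (6.02), 2 were called, UGT73B5 and UGT85A5, and of the 16 brighter ones 1 was, UGT72B3. Among all genes 2.54% of the dimmer and 12.2% of the brighter ones were called.

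**Figure D3:**
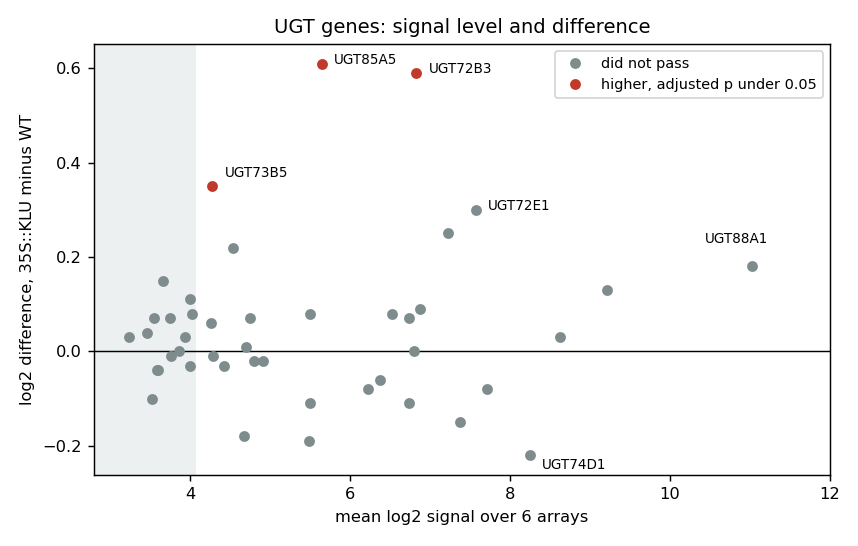
Log2 difference, 35S::KLU minus WT, against the mean log2 signal over 6 arrays for the 44 UGT genes, with called genes in red. The grey band covers signals below the lowest array lower quartile (4.06), where UGT differences were within 0.15 of zero, and the called UGT73B5 lies just to its right at 4.28.

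With neighbours defined as members with at most 5 coding genes between them, 27 members fell in 11 runs and 17 stood alone. The differences spanned 0.80 on the log2 scale in the run of UGT85A5 and 0.38 in that of UGT73B5, both of which contain a called gene. In the other 9 runs they spanned under 0.3, and the differences of all uncalled members lay between -0.22 and 0.30. The probe sets of all 44 members carry the plain suffix _at, which by Affymetrix naming marks sets not designed to share probes with related genes, but hybridisation between near-identical copies was not tested.

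**Figure D4:**
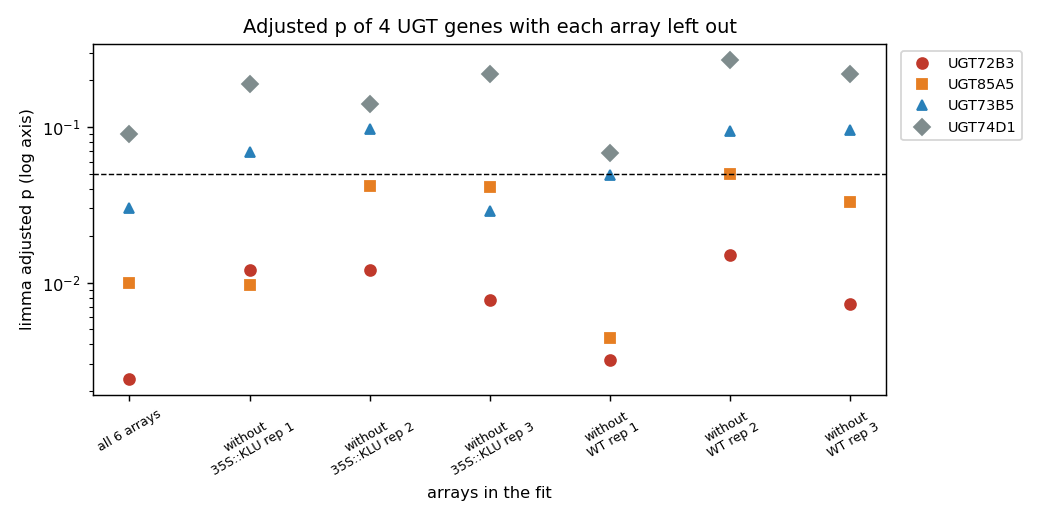
Limma adjusted p on a log axis for UGT72B3, UGT85A5, UGT73B5 and UGT74D1 in the fit of all 6 arrays and with each array left out in turn, with the dashed line at 0.05. UGT72B3 and UGT85A5 stayed under the line in all 7 fits, UGT73B5 was above it in 4, and UGT74D1 was above it in all.

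Genes that supply or use the same molecules were compared with the same fit. Of 26 genes for making UDP-sugars only USP had a listed probe set of its own, here called measured, which makes several UDP-sugars from sugar phosphates, and it differed by -0.08 (SE 0.08, adjusted p = 0.65). Beta-glucosidases remove glucose from such conjugates, and of 47 genes 22 were measured, of which 1 rose, 1 fell and 20 did not pass (median 0.01). The called share was 9.09%, against 6.85% of all genes, and 12 of the 22 lay below the lower quartile on every array. BGLU16 had 7.20, 7.23 and 7.15 in 35S::KLU and 7.44, 7.69 and 7.61 in WT, a difference of -0.39 (SE 0.08, adjusted p = 0.017). Its groups were clearly apart. Removing WT replicate 2 (adjusted p = 0.086), WT replicate 3 (0.058) or 35S::KLU replicate 3 (0.066) each time ended the call. BGLU25 rose by 0.33 (SE 0.09, adjusted p = 0.046), a call that the removal of 5 of the 6 arrays ended (all but 35S::KLU replicate 2), at adjusted p from 0.056 to 0.13. BGLU46, known for the hydrolysis of monolignol glucosides, differed by 0.22 (adjusted p = 0.13) at a level below the lower quartile on every array. PYK10, given above as a root marker, is also a beta-glucosidase gene and differed by 0.43 (SE 0.13, adjusted p = 0.078).

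Of 21 phenylpropanoid and monolignol genes 3 were measured and 1 passed, and so few do not compare with the 6.85% called among all genes. HCT, which encodes the hydroxycinnamoyl transferase of monolignol synthesis, fell by 0.39 on the log2 scale, with 9.65, 9.77 and 9.56 in 35S::KLU and 9.90, 10.09 and 10.16 in WT (SE 0.09, adjusted p = 0.027). All 35S::KLU arrays were below all WT arrays. ALDH2C4, which oxidises sinapaldehyde and coniferaldehyde, and CCR2, a cinnamoyl-CoA reductase gene, differed by 0.09 and 0.10 and did not pass. A search of RefSeq synonyms found 6 glycosyltransferase genes of the superfamily that carry another symbol, and genes without such a synonym were not counted. Of the 6, 4 were measured and 1 passed, also too few to set against that share. This was UF3GT, an anthocyanin glycosyltransferase gene, at 8.69 ± 0.43 in 35S::KLU and 6.51 ± 0.25 in WT (SD, n = 3 each, adjusted p = 0.0002), while the gene of UGT72B1, listed as GT72B1, differed by 0.22 (SE 0.11, adjusted p = 0.27). In the fits without 1 array, HCT kept its call only when WT replicate 1 or 35S::KLU replicate 2 was the array removed, and the adjusted p reached 0.11 without WT replicate 2.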

How the data were processed

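The deposited values are log2 signals, 1 for each probe set on each array, which the authors made with RMA, a method that subtracts background, equalises the arrays' distributions and combines each set's probes. RMA is named in the submitters' processing notes without a version. Each array was matched to its genotype by its label. Of 22810 probe sets, 64 Affymetrix controls were left out and 22746 tested with no filter on level. Genes were named from the platform annotation, with 13513 probe sets paired with 1 gene, and neighbours were taken from the RefSeq gene order of TAIR10.1. The files name no genome build, and gene positions are therefore left out.

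Differences were 35S::KLU minus WT, estimated by lmFit and eBayes of limma 3.58.1 under R 4.3.3. Tests were two-sided, and p-values were adjusted by Benjamini-Hochberg across the 22746 probe sets and called under 0.05. The number of arrays limits the precision. Tables used Python 3.11.15 and pandas 2.3.3, and figures matplotlib 3.10.9. The fit was tested on simulated data in which 200 of 22746 probe sets differed: for log2 differences of 0.5, 1 and 2 it found 44.8%, 91% and 100%, and it made 6 false calls. In the data far more probe sets, 1893, were called, so these shares are not the sensitivity for the members.

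The members and lists were chosen with earlier results of these data known, so lists are described by counts and medians with no test. Named with array values were each called member and, per family, the member with the smallest p. From each other list up to 4 genes with the smallest p were eligible. UGT72E1, UGT85A7, UGT73B4 and UGT76C1 were given array values after theirs were seen. Alternatives were 3 other scalings, weighting arrays by quality, a replicate block, removal of each array, a filter on dim probe sets, a trended and robust eBayes prior, testing 1 probe set per gene or the mean of them, and other thresholds.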

Additional observations from a re-analysis of the deposited data

How the results depend on the processing

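UGT72B3, UGT73B5 and UGT85A5 were the called members under each of the 3 other scalings, the trended and robust prior, and with either 1 probe set per gene or their mean. Each member had 1 probe set, so the per-gene fits could not change its difference, only its test. With the filter on dim probe sets 16 members were tested and 1 passed, UGT72B3, since UGT73B5 and UGT85A5 are dimmer than the filter allows. Weighting arrays by quality gave 1 fall, UGT74D1, as did a threshold of 0.1, against 0 in the fit of all 6 arrays with equal weights. With each array left out in turn, 2 to 4 members rose and 0 fell. The median difference of all members lay between 0.02 and 0.05 over these alternatives. UGT78D3 had a difference of -0.02 without WT replicate 2, the lowest of a range that reached 0.13. The filter left only UGT73B1 of UGT73 (-0.11) and only UGT84A3 of UGT84 (0.08), so these are values of single genes. Of UGT72 it left only UGT72B3 and UGT72E1, with a median of 0.44, too few to stand for the family.

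The study states independent experiments with shared plates, but the labels do not say that the replicate number marks the experiment. The replicate numbers were not shown to pair the arrays, since same-numbered arrays' deviations from their genotype means correlated at -0.205, 0.0392 and -0.056 over all probe sets. With the replicate block 3 members rose and 0 fell, and the adjusted p of UGT73B5 was 0.0479. Over all probe sets the calls went from 1893 to 1279 with the block. The HCT and BGLU25 calls were lost with it, at adjusted p of 0.057 and 0.10. BGLU25 also failed with median-centring (adjusted p = 0.0506) and with 1 probe set per gene (adjusted p = 0.0519). Signals below the arrays' lower quartile limit what can be seen for 13 members.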

Other observations

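Another 3 probe sets name a UGT gene together with a second gene and were left out of the comparison, since the signal cannot be assigned to either. The probe set of UGT73B2 and UGT73B3, relatives of UGT73B5, had levels of 6.23, 6.24 and 6.75 in 35S::KLU and 6.44, 6.02 and 5.80 in WT. The genotypes overlapped, and the log2 difference was 0.32 (SE 0.18, limma adjusted p = 0.35). The probe set of UGT89B1 and AT1G73885 had 7.91, 7.69 and 7.71 in 35S::KLU and 7.99, 7.96 and 7.94 in WT. All 35S::KLU arrays were below all WT arrays, and the difference was -0.20 (SE 0.08, adjusted p = 0.18). The probe set of UGT71D1 and AT2G29710 differed by 0.01 (SE 0.08, adjusted p = 0.95).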
